A study of Mus musculus with 6 samples.

Results

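Secreted host defence is described here through 10 antimicrobial and whey acidic protein genes, Lcn2, Slpi, Camp, Defb1, Wfdc2, Wfdc18, Pglyrp1, Lyz2, Saa3 and Ltf, in 2 murine keratinocyte lines. All but Camp are among the 16081 genes listed above 0 in at least 1 library. The 10 genes were chosen by symbol with the coverage values of these same libraries in view, and Wfdc18 was included because it is listed at 0 in the KSFM-Ca2+ libraries only. Their differences between the lines are therefore a description and carry no test.

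Epithelial surfaces secrete small cationic peptides and proteins that kill microbes, starve them of iron or bind their cell walls. Whey acidic proteins share a compact, disulphide-bonded domain that in several members inhibits serine proteases, and the best known of them, the secretory leukocyte protease inhibitor encoded by Slpi, also has antibacterial activity. In the epidermis such genes respond to injury, microbial products and cytokines, and some are switched on only as keratinocytes differentiate.

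RNA-seq was performed on 3 libraries of the KSFM-Ca2+ cells and 3 libraries of the DKSFM cells, both of strain C57BL/6 and without treatment. The KSFM-Ca2+ line came from neonatal skin and was derived and kept in the low-calcium medium of that name. The DKSFM line descends from it and was adapted to DKSFM medium, so the parts of medium and adaptation in any difference cannot be told apart. No source says that the replicates were separate cultures, so the p-values measure the spread between these samples, which may be technical.

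The unit is read coverage per base of a gene, listed to 1 decimal. As a value per base it is not expected to grow with gene length, so levels are compared between genes. How it was computed from alignments is not given, which limits such comparisons, ranks and shares. Total coverage over all genes was 1601676, 1238411 and 1057750 in KSFM-Ca2+ replicates 1 to 3 and 1174348, 1239438 and 1170675 in DKSFM replicates 1 to 3. Values below are scaled between libraries and given as mean ± SD (n = 3), and those called listed are as deposited. Genes other than the 10 members were called when limma gave an adjusted p under 0.01 and a change of at least 2-fold. Log2 differences are DKSFM minus KSFM-Ca2+ on log2(scaled coverage + 0.1).

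The libraries bore the markers of basal keratinocytes. All 6 genes of that list were covered in every library. Krt14 led, with a scaled coverage of 11992 ± 242 in the KSFM-Ca2+ cells and 29678 ± 1519.8 in the DKSFM cells. Krt14 and Krt5 were called higher in the DKSFM cells, and the other 4 were not called. Of those 4, Itgb4 had a lower mean in the DKSFM cells (321 ± 6.30 and 192 ± 8.57, log2 difference -0.75). The log2 differences were 0.13 for Trp63, 0.14 for Itga6 and 0.36 for Col17a1. Several of the members are better known from neutrophils and macrophages than from skin. Of 19 leukocyte genes, 8 were listed at 0 in every library, Csf3r, Mpo, Tyrobp and Adgre1 among them, and Ptprc was listed at 0.1 in DKSFM replicate 2 and at 0 elsewhere. The scaled coverage of the leukocyte list summed to 11.1, 11.2 and 13.0 in the KSFM-Ca2+ libraries and to 14.8, 19.9 and 21.6 in the DKSFM libraries. Nearly all of it came from the lysosomal gene Cd68 (11.5 ± 0.906 and 17.6 ± 3.63), the 1 gene of the list that passed the filter on low values, which was not called. Of 9 fibroblast genes, 8 were listed at 0 throughout, and the list summed to 1.14, 0.893 and 1.30 in the KSFM-Ca2+ libraries and 2.33, 2.10 and 2.23 in the DKSFM libraries, all from Pdgfra. Of 6 melanocyte genes 2, Dct and Tyr, were listed at 0 throughout, Pmel was the most abundant, and the sums were 0.534, 0.893 and 0.708 against 0.318, 0.699 and 0.212. Of 4 endothelial genes 2, Cdh5 and Tie1, were listed at 0 throughout, Pecam1 was the most abundant and was called higher in the DKSFM cells, and the sums were 2.67, 2.78 and 3.07 against 8.04, 8.18 and 7.10. Of 6 genes of the mammary secretory epithelium, where whey acidic proteins were first known, 5 were listed at 0 throughout, and Elf5 reached a listed 0.1 in 2 DKSFM libraries. The part of other cell types in the members' values was not tested.

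Of the 10 members, 7 passed the filter, 0.5 or more of scaled coverage in 3 or more libraries, and Camp, Lyz2 and Ltf did not. Between the lines, 5 of the members differed by at least 2-fold toward lower values in the DKSFM cells without overlap of libraries (Slpi, Wfdc2, Lcn2, Pglyrp1 and Saa3), a pattern that 10.8% of all 12409 tested genes met. In the other direction 2 members, Defb1 and Wfdc18, met the same rule, which 13.3% of all tested genes met. Saa3 passed the filter through the KSFM-Ca2+ libraries only and Wfdc18 through the DKSFM libraries only, so both could hardly do otherwise. A filter on every library left 4 members lower and 1 higher. Nothing is read from these counts, since the same contrast was in view when the members were chosen. RNA was measured in bulk, so fewer cells that express a gene and less RNA per cell cannot be told apart.

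**Figure D1:**
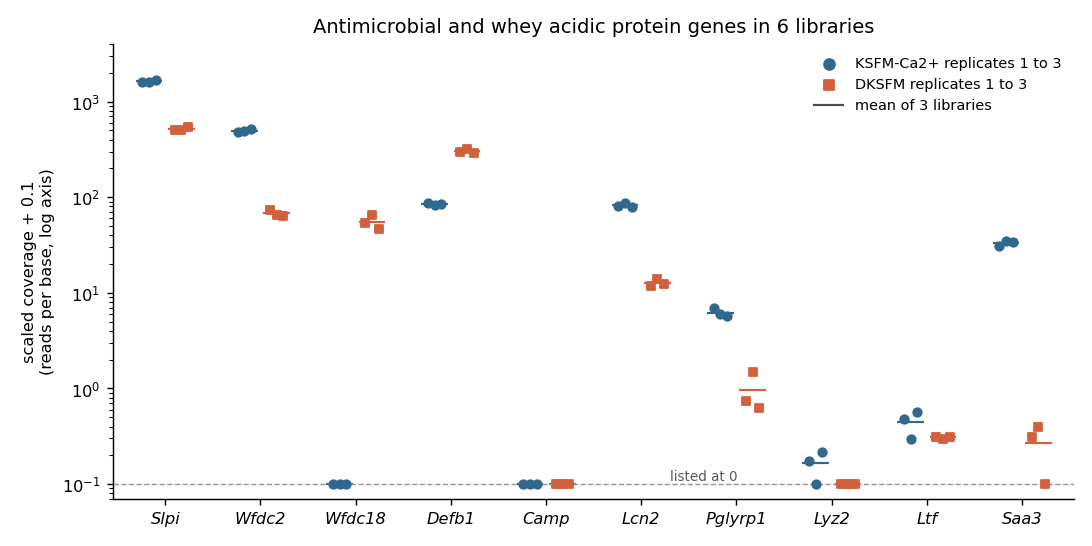
Scaled coverage plus 0.1 (reads per base, log axis) of the 10 genes in each of 3 KSFM-Ca2+ libraries (blue circles) and 3 DKSFM libraries (orange squares), with the mean of each line as a bar and the dashed line marking genes listed at 0. Slpi was the highest of the 10 genes in every library, Defb1 and Wfdc18 were higher in the DKSFM cells, and Camp was at 0 in all 6 libraries.

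Among the whey acidic protein genes, Slpi (chromosome 2 from 164354070 to 164389095) was the most abundant member in both lines. That GENCODE span extends upstream of the RefSeq start site of Slpi, which is the one used below for distances and sequence. Its scaled coverage was 1585, 1613 and 1692 in the KSFM-Ca2+ libraries and 501, 510.0 and 536 in the DKSFM libraries. Every KSFM-Ca2+ library lay above every DKSFM library, and within each line the libraries were close. The means of 1629.8 ± 55.7 and 516 ± 18.3 gave a log2 difference of -1.66 (standard error 0.04). Even at its lower level, Slpi stood above 96.9% of tested genes in the DKSFM cells, against 99.3% in the KSFM-Ca2+ cells.

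Wfdc2 (chromosome 2 from 164562413 to 164568510), which encodes the secreted epithelial protein HE4, was the next most abundant in the KSFM-Ca2+ cells. Its scaled coverage was 480.2, 489 and 519.9 in the KSFM-Ca2+ libraries and 73.4, 65.5 and 63.8 in the DKSFM libraries, with no overlap. The log2 difference was -2.88 (standard error 0.06), and the gene stood above 96.7% of tested genes in the KSFM-Ca2+ cells and above 73.1% in the DKSFM cells.

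Wfdc18 (chromosome 11 from 83709015 to 83711348), first described as an extracellular proteinase inhibitor of the mammary gland, ran the other way. It was listed at 0 in all 3 KSFM-Ca2+ libraries and at 50.3, 64.8 and 44 in DKSFM replicates 1 to 3, a scaled 54.9 ± 9.12. No fold is given against a line listed at 0. For this short gene 0.1 of coverage corresponds to about 0.628 reads. The closely related Wfdc17 is the neighbour of Wfdc18, 2.75 kb away on chromosome 11. It was also listed at 0 in every KSFM-Ca2+ library and at 0.7, 2.2 and 1.2 in the DKSFM libraries. Wfdc17 passed the filter through the DKSFM libraries only, so its call, higher, could hardly be otherwise. Wfdc21, the neighbour on the other side, was listed at 0 in all 6 libraries. Reads of these related genes could be shared, which makes the low values of Wfdc17 uncertain.

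Defb1 (chromosome 8 from 21776599 to 21795185) encodes the beta-defensin that epithelia make without an inflammatory stimulus. Its scaled coverage was 87.4, 83.7 and 85.6 in the KSFM-Ca2+ libraries and 297, 322 and 288 in the DKSFM libraries. All DKSFM libraries were above all KSFM-Ca2+ libraries (log2 difference 1.82, standard error 0.04). Camp (chromosome 9 from 109847379 to 109849617), the gene of the other classic epithelial peptide, cathelicidin, was listed at 0 in all 6 libraries. For Camp 0.1 of coverage corresponds to about 0.892 reads.

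Among the proteins that act on bacterial iron supply and cell walls, Lcn2 (chromosome 2 from 32384633 to 32388252), whose product lipocalin 2 binds bacterial siderophores, had a scaled coverage of 81.7, 87.9 and 79.7 in the KSFM-Ca2+ libraries and 11.6, 13.9 and 12.4 in the DKSFM libraries. The lines did not overlap (log2 difference -2.71, standard error 0.07). Ltf (chromosome 9 from 111019271 to 111042767) encodes the iron-binding lactoferrin and was listed at 0.5, 0.2 and 0.4 in the KSFM-Ca2+ libraries, against 0.2, 0.2 and 0.2 in the DKSFM libraries. These values overlap between the lines and lie within a few rounding steps of 0. Pglyrp1 (chromosome 7 from 18871331 to 18890459), a peptidoglycan recognition protein, was listed at 9, 5.9 and 4.8 in the KSFM-Ca2+ libraries, against 0.6, 1.4 and 0.5 in the DKSFM libraries. After scaling it had 6.13 ± 0.642 and 0.854 ± 0.473 without overlap, with a log2 difference of -2.81 (standard error 0.30) that was -1.97 with a pseudocount of 1. Lyz2 (chromosome 10 from 117277331 to 117282321), the lysozyme of macrophages and neutrophils, was listed at 0.1, 0 and 0.1 in the KSFM-Ca2+ libraries and at 0 in the DKSFM libraries. The lines overlap at 0, and the adjacent copy Lyz1 was listed at 0 in every library.

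Saa3 (chromosome 7 from 46711998 to 46715700), the serum amyloid A that mice make outside the liver, had the widest gap among the members covered in both lines. It was listed at 40.1, 35.3 and 29 in the KSFM-Ca2+ libraries, against 0.2, 0.3 and 0 in the DKSFM libraries. The lines did not overlap, and the DKSFM libraries sat at 0 or within 3 rounding steps of it. The log2 difference of -7.17 (standard error 0.45) rests on the pseudocount and was -4.88 with a pseudocount of 1. The paralogue Saa1 had 4.39 ± 1.69 and 4.78 ± 1.32, overlapped between the lines and was not called, while Saa2 was listed at 0 throughout. Reads can be shared within this family.

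Added up, the 10 genes had a scaled coverage of 2335 ± 75.0 in the KSFM-Ca2+ cells and 955 ± 20.7 in the DKSFM cells. Slpi made up 69.8% ± 0.158 of that sum in the KSFM-Ca2+ libraries and 54.1% ± 2.26 in the DKSFM libraries. The share of Wfdc2 was 21.3% ± 0.213 in the KSFM-Ca2+ libraries and 7.09% ± 0.646 in the DKSFM libraries. Defb1 took up 3.67% ± 0.159 and 31.7% ± 1.25. The summed RNA coverage thus differed in make-up as well as in amount. The 3 whey acidic protein genes were lower together in the DKSFM libraries (a summed 638 ± 9.58, against 2126 ± 76.5), although Wfdc18 was higher. Protein of the members was not measured. The 7 other genes summed to 316 ± 18.9 in the DKSFM libraries and 208 ± 3.67 in the KSFM-Ca2+ libraries, a difference that came from Defb1. Without Defb1 the sum of the remaining 6 genes was lower in the DKSFM libraries (13.9 ± 1.66, against 123 ± 5.23).

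**Figure D2:**
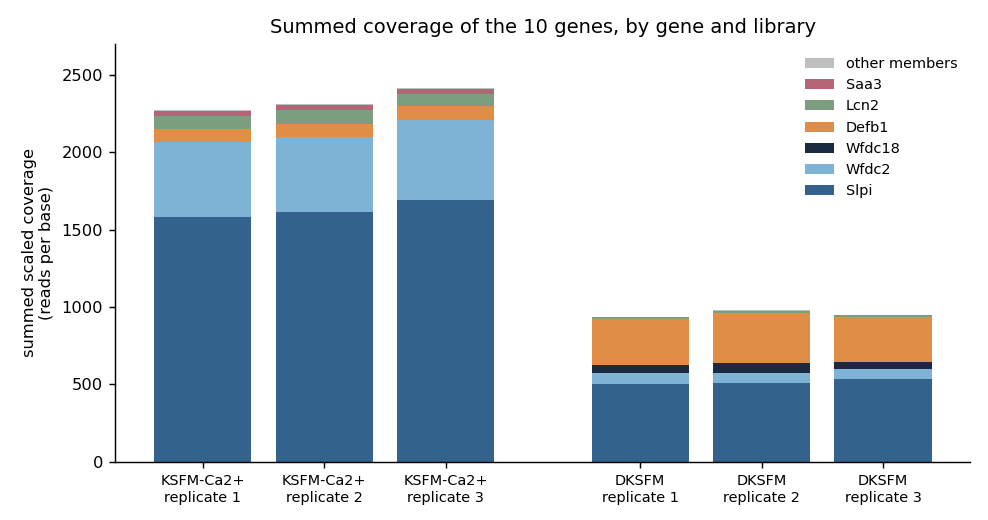
Stacked bars of scaled coverage (reads per base) of the 10 genes in each library, with the 4 genes not drawn on their own pooled in grey. The bars reach between 2272 and 2418 in the KSFM-Ca2+ libraries and between 938 and 978 in the DKSFM libraries, where Defb1 takes a larger share.

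Wfdc2 starts 206 kb from the RefSeq start site of Slpi, in an interval of chromosome 2 that holds most whey acidic protein genes of the mouse. From Wfdc5 to Wfdc3 it spans 569.6 kb and 32 listed protein-coding genes, 16 of them with the domain. Of these 16 genes, 10 were listed at 0 in every library. The differences within the interval did not run one way. Of the 7 tested genes other than Slpi and Wfdc2, 3 were called higher in the DKSFM cells, all with the domain. Over all tested genes, 13.1% were called higher and 10.6% lower. Wfdc5 and Wfdc12 passed the filter through the DKSFM libraries only, so their calls could hardly be otherwise. With a filter on every library Wfdc3 was still called higher. Wfdc3, 389 kb from the same start site, had 0.947 ± 0.226 in the KSFM-Ca2+ cells and 83.2 ± 4.13 in the DKSFM cells (log2 difference 6.34, standard error 0.15, adjusted p = 9.20e-09; limma). At the other end, Wfdc12 had 0.131 ± 0.0621 and 4.56 ± 0.696 (log2 difference 4.36, standard error 0.24). Wfdc5 had 0.0254 ± 0.0440 and 2.90 ± 0.443 (log2 difference 4.62, standard error 0.29). Both differences rest on the pseudocount and were 2.29 for Wfdc12 and 1.92 for Wfdc5 with a pseudocount of 1. Wfdc12 and Wfdc5 are thus low in both lines, with some KSFM-Ca2+ libraries at or near 0. The 4 tested genes without the domain had lower means in the DKSFM cells and missed the 2-fold threshold, with log2 differences of -0.20 for Sdc4 (adjusted p = 7.97e-04), -0.13 for Sys1 (0.0242), -0.90 for Dbndd2 (1.37e-07) and -0.44 for Pigt (7.83e-06).

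**Figure D3:**
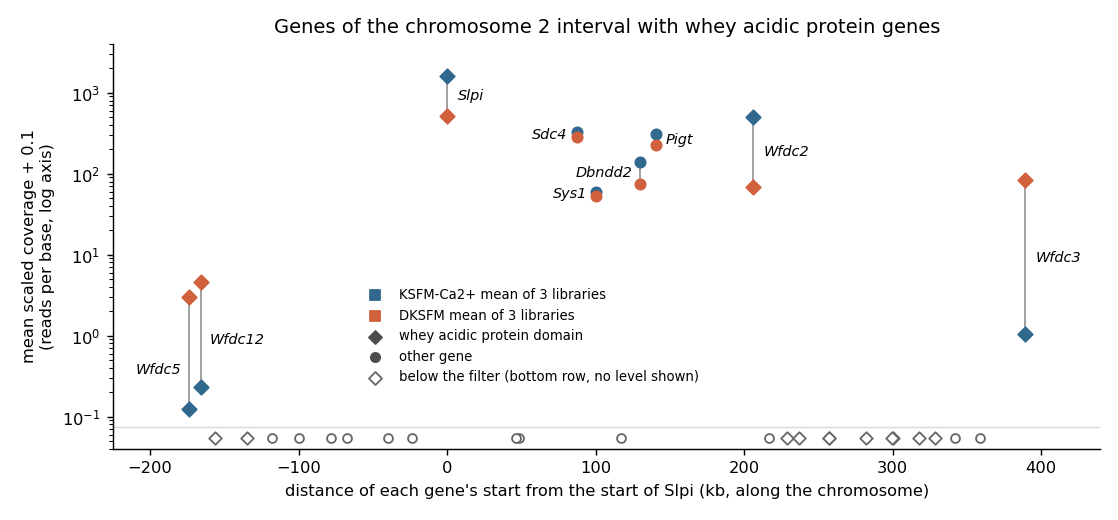
Mean scaled coverage plus 0.1 (log axis) of the tested genes in the chromosome 2 interval against the distance of each gene's start from that of Slpi (kb), with KSFM-Ca2+ in blue, DKSFM in orange, diamonds for genes with a whey acidic protein domain and open symbols along the bottom, without a level, for genes below the filter. Slpi and Wfdc2 were lower in the DKSFM cells, and Wfdc5, Wfdc12 and Wfdc3 at the ends were higher.

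Around all 10 members, 20 listed protein-coding genes are the nearest on either side. Of these neighbours 8 were tested. Wfdc17, which passed the filter through the DKSFM libraries, where it is higher, was the 1 that was called, while 13.1% of all tested genes were called higher and 10.6% lower. Among the neighbours not called, 1110008P14Rik and Ptges2 beside Lcn2 had 79.7 ± 2.97 and 23.1 ± 1.69 in the KSFM-Ca2+ cells and 75.7 ± 5.45 and 23.2 ± 0.801 in the DKSFM cells. Under 2-fold but with an adjusted p under 0.01 were 4 neighbours. Nothing is read from that number, since the shares over all tested genes given here also require a 2-fold change. Nme6 and Cdc25a beside Camp were lower in the DKSFM cells, at 29.6 ± 0.806 and 15.3 ± 1.23 (log2 difference -0.95, standard error 0.06, adjusted p = 2.42e-06) and at 15.6 ± 0.806 and 13.4 ± 0.462 (log2 difference -0.22, standard error 0.06, adjusted p = 0.00882). Pigt beside Wfdc2 was lower too, at 305 ± 6.12 and 225 ± 9.21 (log2 difference -0.44, standard error 0.04, adjusted p = 7.83e-06), and Saal1 beside Saa3 was higher, at 6.65 ± 0.320 and 7.95 ± 0.222 (log2 difference 0.26, standard error 0.07, adjusted p = 0.0096). Other tested genes within 10 Mb of a member had median log2 differences from -0.29 around Defb1 to 0.55 around Saa3, against -0.01 for all tested genes. Around the other members that passed the filter the medians were 0.51 for Pglyrp1, 0.10 for Lcn2, -0.05 for Slpi, -0.06 for Wfdc2 and -0.21 for Wfdc18. A part of position in the differences was not tested.

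RefSeq start regions were matched for 9 members, all but Defb1 (GRCm38.p6, 250 bases before the start site). Motifs of factors known from host defence and epidermis were searched in them on both strands, 8 in all. TTGCNNAA, the core of a C/EBP site, was present before Lcn2, Slpi, Saa3 and Ltf and in 9.56% of all 32851 such windows. A looser form, TTNNGNAA, which overlaps each of those matches, was present before 6 members and in 36.8% of windows. TATAAA was present before Wfdc18 only and in 12.4% of windows. The NF-kappaB consensus, in 7.25% of windows, was found before Pglyrp1, and the p63 consensus, in 7.13%, before Pglyrp1 and Lyz2. TTCNNNGAA for STAT factors (7.02% of windows), TGANTCA for AP-1 (6.75%) and AACNGGTT for grainyhead-like factors (1.79%) were found before none of the 9. A match is a description of letters, not a binding site. The windows of Slpi (chr2:164356508-164356757, minus strand), Saa3 (chr7:46715701-46715926, minus strand, up to the first annotated exon) and Wfdc18 (chr11:83708754-83709003, plus strand) are printed 5′ to 3′ to show where those letters lie, with TTGCNNAA or its complement in capitals in the first pair and TATAAA in the last.
Slpi: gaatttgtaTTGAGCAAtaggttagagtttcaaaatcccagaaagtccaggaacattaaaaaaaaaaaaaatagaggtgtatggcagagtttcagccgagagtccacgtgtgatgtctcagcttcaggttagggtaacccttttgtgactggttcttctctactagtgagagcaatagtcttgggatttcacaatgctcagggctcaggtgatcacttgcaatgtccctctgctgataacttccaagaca
Saa3: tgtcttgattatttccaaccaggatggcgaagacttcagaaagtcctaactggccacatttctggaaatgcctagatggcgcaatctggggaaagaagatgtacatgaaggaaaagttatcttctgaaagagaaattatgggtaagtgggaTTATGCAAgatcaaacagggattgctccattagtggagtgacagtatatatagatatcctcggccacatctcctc
Wfdc18: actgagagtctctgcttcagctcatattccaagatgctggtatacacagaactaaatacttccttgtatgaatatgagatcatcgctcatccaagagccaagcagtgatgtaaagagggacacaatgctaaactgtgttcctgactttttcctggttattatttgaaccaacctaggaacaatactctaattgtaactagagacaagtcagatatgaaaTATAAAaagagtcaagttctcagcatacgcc
Counted back from the start site, the capitals begin at base -241 in Slpi, -99 in Saa3 and -31 in Wfdc18. The printed window of Slpi lies before its RefSeq start but within the longer GENCODE span of the gene.

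To set the members against their family, genes outside the 10 were taken from lists of related genes and tested in the fit over all genes, in which 1629 genes (13.1% of the 12409 tested) were called higher in the DKSFM cells and 1316 (10.6%) lower. Of 20 other whey acidic protein genes, 5 passed the filter. Of these 5 genes 4 passed through the DKSFM libraries, where they are higher, so they could hardly be called otherwise, and a filter on every library left Wfdc3, which was called higher. The other 4 are Wfdc5, Wfdc12, Wfdc17 and Wfikkn1, named after its values were seen, which had 0.456 ± 0.117 and 1.28 ± 0.106. Wap itself, the milk protein that gave the family its name, was listed at 0 in every library.

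Other antimicrobial and acute phase genes were divided. Of 30, 13 passed the filter, with 7 called higher in the DKSFM cells, 4 lower and 2 not called (13.1% higher and 10.6% lower over all tested genes). With a filter on every library 3 were called higher and 3 lower, since 4 of the 13 genes passed through the DKSFM libraries and 1 through the KSFM-Ca2+ libraries. Among its tested genes the largest falls were in the subunits of calprotectin, which withholds zinc and manganese from bacteria. S100a8 had 158, 186 and 199 in the KSFM-Ca2+ libraries and 2.01, 1.10 and 1.38 in the DKSFM libraries (log2 difference -6.86, standard error 0.19, adjusted p = 1.72e-08; limma), and S100a9 had 109 ± 10.8 and 1.90 ± 0.846 (log2 difference -5.85, standard error 0.28, adjusted p = 3.11e-07). The lines were far apart in both genes. Pglyrp3, a relative of Pglyrp1, fell less, from 40.8 ± 2.27 to 18.8 ± 0.580 (log2 difference -1.11, standard error 0.05, adjusted p = 3.01e-07), and was no longer called when the change was tested against 2-fold itself. Rnase4 rose from 20.3 ± 1.04 to 259 ± 12.0 (log2 difference 3.67, standard error 0.05, adjusted p = 5.88e-10) and Ang, a ribonuclease with antimicrobial activity, from 1.47 ± 0.0838 to 14.7 ± 0.486 (log2 difference 3.24, standard error 0.08, adjusted p = 1.25e-08). The annotated spans of this pair overlap on chromosome 14, so their reads may not be separable. Further beta-defensin genes, named after their values were seen, had low coverage. Defb14 was listed at 0, 0 and 0.3 in the KSFM-Ca2+ libraries, against 7.3, 7.6 and 3.8 in the DKSFM libraries, Defb3 at 0, 0.3 and 0.3 against 3.9, 5 and 4.5, and Defb4 at 0, 0.2 and 0 against 0.6, 1.4 and 0.5. Defb2 was listed at 1.6, 3.6 and 1.5 in the KSFM-Ca2+ libraries and at 0 in the DKSFM libraries. Each passed the filter through the line where it is higher, so the calls, higher for Defb14, Defb3 and Defb4 and lower for Defb2, could hardly be otherwise.

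Serine proteases of the epidermis, which cut cathelicidin or meet whey acidic protein inhibitors outside the cell, had 12 of 13 genes tested, with 9 kallikreins called higher in the DKSFM cells and 3 other genes not called. Over all tested genes 13.1% were called higher. Of the 9 kallikreins, 7 passed the filter through the DKSFM libraries, where they are higher, so their calls could hardly be otherwise. A filter on every library left 2, Klk8 and Klk10. Klk14 was listed at 0 in every KSFM-Ca2+ library and had 93.3 ± 14.0 in the DKSFM cells. Klk12 was likewise listed at 0 and had 11.4 ± 4.02. Klk10 had 0.762, 1.19 and 1.30 in the KSFM-Ca2+ libraries and 83.2, 113 and 96.7 in the DKSFM libraries (log2 difference 6.39, standard error 0.19, adjusted p = 2.23e-08; limma). Klk7, a chymotrypsin-like enzyme of corneocyte shedding, was listed at 0, 0.2 and 0.1 in the KSFM-Ca2+ libraries and had 15.9, 26.3 and 14.0 in the DKSFM libraries, and Klk6 was listed at 0.2, 0 and 0 and had 20.6, 43.0 and 19.6. Klk8 was the kallikrein with the most coverage in the KSFM-Ca2+ cells and rose from 5.87, 5.55 and 6.61 in its libraries to 59.2, 73.1 and 60.8 in the DKSFM libraries (log2 difference 3.40, standard error 0.10, adjusted p = 1.86e-08). Among the kallikreins named here DKSFM replicate 2 was the highest library. The membrane protease St14, which encodes matriptase, had 141 ± 2.24 and 82.3 ± 2.31 without overlap. Its difference missed the 2-fold threshold (log2 difference -0.78, adjusted p = 1.46e-07; limma). Prss8 also missed it, in the other direction, with 14.9 ± 0.871 and 29.1 ± 1.47 (log2 difference 0.96, adjusted p = 1.75e-06). Prss27 overlapped between the lines (log2 difference -0.02).

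**Figure D4:**
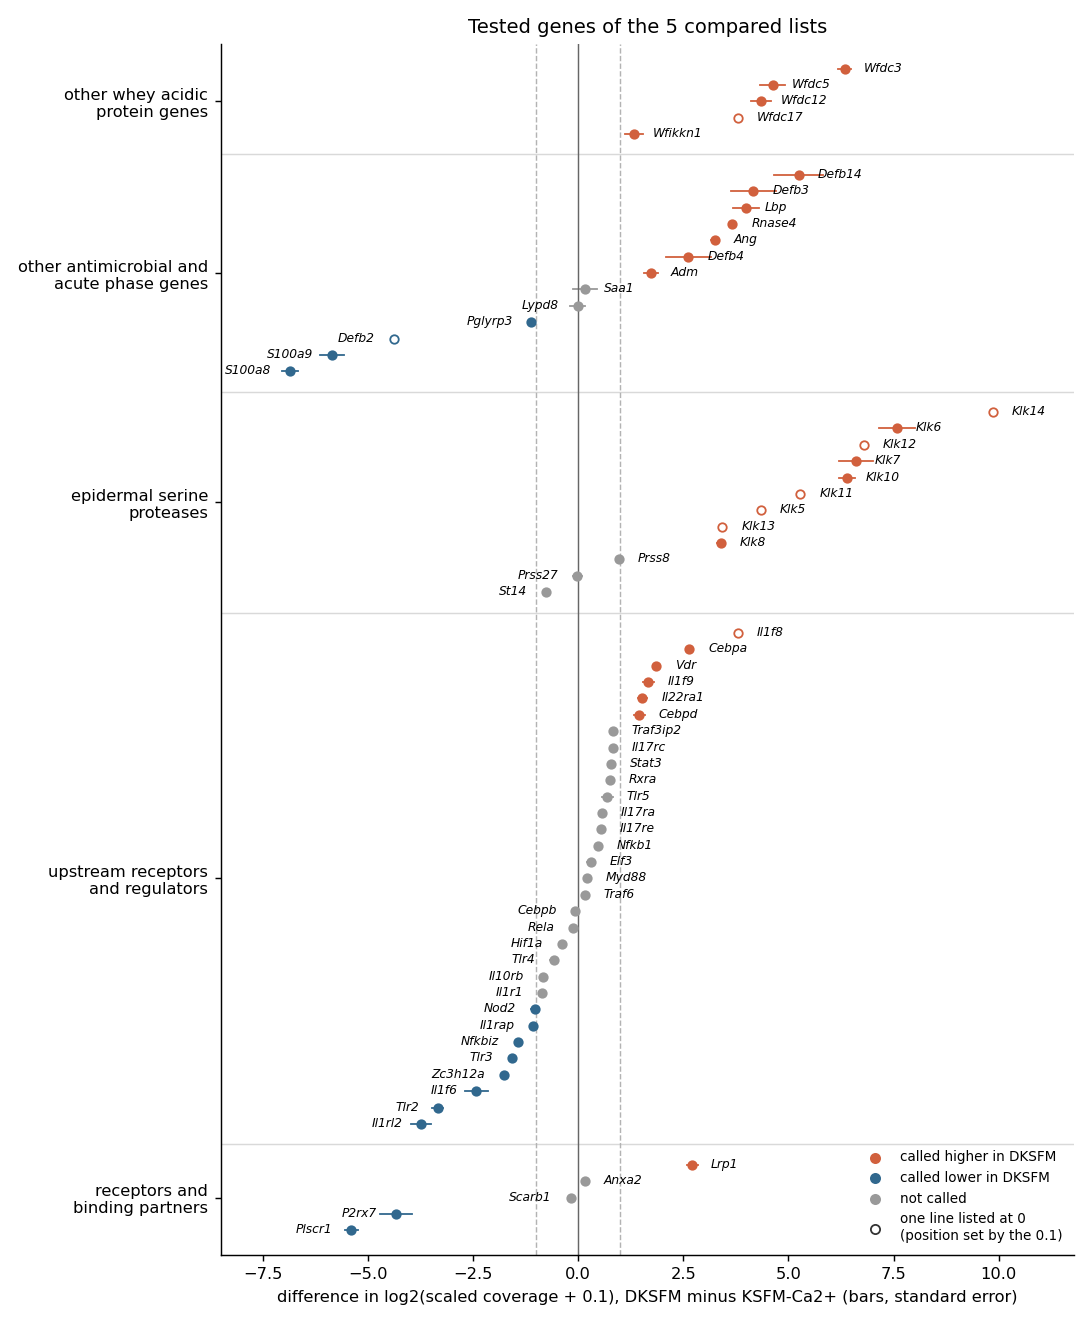
Difference in log2(scaled coverage + 0.1), DKSFM minus KSFM-Ca2+, of every tested gene in 5 lists outside the 10 members, with bars for the standard error, dashed lines at 2-fold, orange for called higher, blue for called lower, grey for not called and open symbols where a line was listed at 0. Among the other whey acidic protein genes and the proteases, 4 of 5 and 7 of 12 genes passed the filter through the DKSFM libraries, where they are higher.

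Upstream of these genes stand receptors for cytokines and microbial products and the transcription factors they act through. Of 33 such genes, 31 were tested, with 6 called higher in the DKSFM cells, 8 lower and 17 not called, and a median log2 difference of 0.21. For all tested genes the shares were 13.1% higher and 10.6% lower, and the median was -0.01. Higher were Cebpa, a C/EBP factor of differentiating keratinocytes (87.7, 78.8 and 78.5 in the KSFM-Ca2+ libraries and 488, 524 and 516 in the DKSFM libraries; log2 difference 2.64, standard error 0.05, adjusted p = 2.62e-09), and Vdr, the vitamin D receptor (34.0 ± 3.13 and 123 ± 0.526; log2 difference 1.86, standard error 0.06, adjusted p = 4.44e-08). Cebpb, with 439 ± 36.1 and 419 ± 36.2, was the most abundant of the 4 C/EBP genes of the list in the KSFM-Ca2+ cells, overlapped between the lines and was not called. Lower was Nfkbiz, which encodes an inducible co-factor of NF-kappaB needed for the Lcn2 response to cytokines (230.4 ± 8.94 and 84.7 ± 1.56; log2 difference -1.44, standard error 0.04, adjusted p = 1.02e-08). Its part in the difference of Lcn2 was not tested. Interleukin receptor genes under 2-fold, named after their values were seen, were divided. Il17ra (log2 difference 0.56), Il17rc (0.82) and Il17re (0.53) were higher, and Il10rb (-0.84) and Il1r1 (-0.87) lower. Traf3ip2 (0.83) and Stat3 (0.79) were also higher and not called. Zc3h12a, the gene of an RNase that degrades cytokine mRNA, had 13.5 ± 0.606 and 3.91 ± 0.115 (log2 difference -1.76, standard error 0.07, adjusted p = 1.11e-07), and Tlr3, a sensor of double-stranded RNA, had 46.2 ± 0.591 and 15.4 ± 0.603 (log2 difference -1.58, standard error 0.04, adjusted p = 1.90e-08). The gene of the interleukin 36 receptor, Il1rl2, was listed at 13.7, 9.3 and 8.8 in the KSFM-Ca2+ libraries and 0.5, 0.5 and 1 in the DKSFM libraries (log2 difference -3.73, standard error 0.24). It passed the filter through the KSFM-Ca2+ libraries, where it is higher, so nothing is read from its call, lower. Its ligand genes, named after their values were seen, had low coverage. Il1f9 was called higher (1.89 ± 0.108 and 6.28 ± 1.09). Il1f6 (1.37 ± 0.272 and 0.175 ± 0.0647) passed the filter through the KSFM-Ca2+ libraries only and Il1f8 (0 and 1.31 ± 0.309) through the DKSFM libraries only, so their calls, lower and higher, could hardly be otherwise. Hif1a was the most abundant gene of the list, with 771 ± 74.6 and 588 ± 33.4. It missed the 2-fold threshold (log2 difference -0.39, adjusted p = 0.00114; limma).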

How the data were processed

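The authors deposited a signal per gene for 6 libraries, the mean read coverage per base listed by symbol to 1 decimal, from directional poly(A) RNA-seq aligned to mm10 with STAR. It was not scaled to library size, and how it was computed from alignments is not given in the sources used here. Members and gene lists were chosen with earlier results of these data known. Coverage was scaled by trimmed mean of M values without weights (trims 0.3 and 0.05). Genes with at least 0.5 in at least 3 libraries were tested with limma 3.58.1 in R 4.3.3 (two-sided moderated test with an intensity trend, no covariate) on log2(scaled coverage + 0.1), with Benjamini-Hochberg adjustment over 12409 genes. A count model was not used because coverage is not a count, so no counting intervals are given. Approximate reads per step assume 85-base reads and the median GENCODE M21 transcript length. Genes were named by a rule: all members, called genes of each list with a mean of at least 10 (at most 6 by fold change), its 3 most covered genes, called neighbours, and the 3 genes nearest in pattern to Slpi and Wfdc18. Outside this rule, marker genes of cell types, relatives of members, neighbours not called, genes of the chromosome 2 interval and some further list genes were also named. The procedure was also run on simulated data, and no result of that run is used here. Python 3.11.15 and matplotlib 3.10.9 drew the figures.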

Additional observations from a re-analysis of the deposited data

How the results depend on the processing

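The counts of called genes and of members kept their values within 1.5 times under total, relative log expression and quantile scaling, without the filter, with pseudocounts of 0.5 and 1, without the intensity trend and with each library left out. A filter on every library, which removes genes near 0 in either line, left 1025 genes called higher in the DKSFM cells, 1 whey acidic protein gene, 3 antimicrobial genes and 2 proteases called higher, 1 receptor or partner gene called lower, and 1 member higher without overlap. Testing against a 2-fold change itself with treat left 1057 genes higher and 787 lower. With only the libraries whose file names carry the word combined (KSFM-Ca2+ replicate 3, assumed to vary like the DKSFM libraries, and the 3 DKSFM libraries), 3 whey acidic protein genes were called higher and 1 receptor or partner gene lower, and the cause was not tested. With a replicate block, 1636 genes were called higher and 1316 lower, and the block changed no count of a list. Same-numbered libraries did not deviate together (correlations across genes of -0.01, 0.02 and -0.01), so the numbers do not pair the samples. Cebpb, not called in the fit, had a log2 difference of -0.07 that was 0.07 with the combined libraries only and 0.00 without DKSFM replicate 1. The 7 members that passed the filter and the other list genes named by the rule kept their direction in each alternative that tested them, and the other genes named were not followed. Low values are limited by the 0.1 step.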

Other observations

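Receptors and binding partners of the 10 proteins had 5 of 14 genes tested, with 1 called higher in the DKSFM cells, 2 lower and 2 not called. For all tested genes the shares were 13.1% higher and 10.6% lower. Plscr1, the gene of a membrane scramblase that binds the leukocyte protease inhibitor, had 38.3 ± 0.378 in the KSFM-Ca2+ cells and 0.831 ± 0.213 in the DKSFM cells (log2 difference -5.39, standard error 0.15, adjusted p = 1.84e-08; limma). Lrp1, a large endocytic receptor that takes up lactoferrin, rose from 1.75 ± 0.322 to 11.9 ± 0.449 (log2 difference 2.71, standard error 0.13, adjusted p = 3.53e-07). Anxa2, which also binds the protease inhibitor, was the most abundant of the list at 2146 ± 75.8 and 2385 ± 102. Scarb1, a receptor for serum amyloid A, had 130.4 ± 3.77 and 115 ± 3.34. Both missed the 2-fold threshold (log2 differences 0.15, adjusted p = 0.00786, and -0.18, adjusted p = 0.00146; limma). The lipocalin receptor genes Slc22a17 and Lrp2 were listed at 0 in every library, as were Mc4r, Ccr6 and Trem1. The other gene called lower, named after its values were seen, was P2rx7, listed at 4.3, 4.5 and 2.7 in the KSFM-Ca2+ libraries, against 0.1, 0.2 and 0 in the DKSFM libraries. It passed the filter through the KSFM-Ca2+ libraries only, so it could hardly be called otherwise.

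The genes closest to Slpi over the 6 libraries, by Euclidean distance on log2(scaled coverage + 0.1), were Dstn (distance 0.328), Hspa5 (0.346) and Serpinb6a (0.486). Dstn encodes an actin-severing protein and had 1544 ± 84.1 and 578 ± 11.7. Hspa5, the chaperone of the endoplasmic reticulum, had 1851 ± 37.1 and 527 ± 16.9, and the serpin gene Serpinb6a had 1433 ± 58.8 and 452 ± 17.2. Closest to Wfdc18 were 4833423E24Rik (0.349), Vnn1 (0.413) and Mir675 (0.829), all listed at 0 in the KSFM-Ca2+ libraries. In the DKSFM libraries the scaled coverage of 4833423E24Rik was 48.4, 52.2 and 49.5, that of Vnn1, which encodes pantetheinase, 58.6, 53.1 and 56.1, and that of Mir675 32.7, 47.6 and 45.6. They were picked for this pattern and passed the filter through the DKSFM libraries only, so nothing is read from their calls. Mir675 lies within H19, and reads of the longer transcript are not separated from its own.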
